A study of Mus musculus with 39 samples.

Results

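Livers of mice that lack glycine N-methyltransferase (GNMT) were set against livers of mice that lack methionine adenosyltransferase 1A (MAT1A), both at 3 months of age, with the wild types of each cohort. All 20 arrays labelled 3 months were taken, out of 39 in the series, in 4 groups of 5: GNMT knockouts labelled non-alcoholic steatohepatitis (NASH), their wild types labelled healthy, MAT1A knockouts labelled steatosis, and their wild types labelled healthy. The labels give the strain as C57B6SJL, the tissue as liver and no treatment for every animal, and each array held the RNA of 1 liver sample. They do not state the sex of the mice, the part of each gene that was deleted or the line from which each knockout was made. Knockouts are called biological replicates and wild types only replicates, so that p-values measure the spread between these samples, and the number of arrays limits the precision.

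S-adenosylmethionine (SAMe) is the methyl donor of the cell, and adult liver makes it from methionine and ATP with the enzyme that Mat1a encodes. Gnmt encodes an abundant liver methyltransferase that passes the methyl group to glycine and so burns off surplus SAMe. Loss of Gnmt is known to leave the liver with an excess of SAMe and loss of Mat1a with a shortage, while fat accumulates in both. The question of the comparison is which genes answered to the 2 losses in the same way, which in opposite ways and which to 1 of them only. The knockouts also differ in labelled stage, NASH with GNMT loss and steatosis with MAT1A loss. In a difference between the models, the deleted gene and the stage cannot be told apart.

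For each gene the effect of a loss was the 5 knockouts' average minus that of the 5 wild types from their cohort, in log2 units of the expression values that robust multiarray averaging (RMA) gives. The GNMT effect minus the MAT1A effect is called the difference. The value after ± is the standard error from limma, and a gene was called at a Benjamini-Hochberg adjusted p under 0.05 over 18194 genes. Array medians ran from 4.18 to 4.33 in the GNMT cohort and from 4.91 to 4.99 in the MAT1A cohort, and the sources do not say whether RMA was run on both together, so only effects and no levels are set against each other across cohorts. A group is named as low where its average did not exceed the top array median of its cohort, since background then limits how exactly the size of an effect is known.

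The targeted genes were measured first, with values of single arrays in the order of the replicate numbers. Gnmt measured 10.28, 10.11, 10.73, 9.91 and 9.87 in GNMT knockouts, against 13.58, 13.48, 13.49, 13.56 and 13.51 in their wild types, and its effect was -3.34 ± 0.14. Mat1a measured 9.52, 9.72, 9.54, 9.56 and 9.46 in MAT1A knockouts, against 12.69, 12.67, 12.76, 12.58 and 12.67 in their wild types, and its effect was -3.12 ± 0.064. Neither group of knockouts overlapped with its wild types, and the signal that remained was far above the array medians in both. Gnmt was not called in MAT1A knockouts, with an effect of 0.10 ± 0.055. Mat1a measured 13.17, 13.07, 13.10, 12.98 and 12.96 in GNMT knockouts, against 12.89, 12.42, 12.73, 12.68 and 12.75 in their wild types, a rise of 0.36 ± 0.091 (limma, adjusted p = 0.0196). All GNMT knockouts lay above all GNMT wild types for Mat1a, but the call was lost with all 39 arrays in 1 fit (adjusted p = 0.099).

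As a check of the tissue, 23 hepatocyte markers averaged 10.93 to 11.02 in the single GNMT knockouts, 10.91 to 11.06 in GNMT wild types, 11.49 to 11.55 in MAT1A knockouts and 11.45 to 11.50 in MAT1A wild types. Of these markers Ahsg was the only one called in either knockout, 0.25 ± 0.054 higher in MAT1A knockouts. The female transcript Xist lay between 3.22 and 3.66 and the Y-linked Eif2s3y between 5.63 and 6.73 in all 20 arrays, so no array stood apart in sex. Lcn2, an acute phase gene of hepatocytes and neutrophils, varied widely among single mice, at 7.02 to 11.35 in GNMT knockouts, 7.23 to 11.88 in GNMT wild types, 9.76 to 13.55 in MAT1A knockouts and 5.06 to 12.95 in MAT1A wild types. GNMT wild types 1 and 5 held the 2 highest Lcn2 values of their group, and counts were repeated without them. In whole liver a fall of a transcript in its cells and a loss of the cells that hold it cannot be told apart.

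The effects of the losses differed in 4 genes of lipid, estrogen and amino acid metabolism. Cyp4a14, a fatty acid omega-hydroxylase and standard target of the lipid sensor PPAR alpha, measured 10.68, 5.97, 9.28, 9.73 and 5.99 in GNMT knockouts, against 4.66, 4.69, 4.00, 4.35 and 3.88 in their wild types. Cyp4a14 measured 4.70, 4.51, 4.24, 4.42 and 4.11 in MAT1A knockouts, against 7.80, 4.83, 5.32, 5.47 and 5.16 in their wild types. Cyp4a14 was thus higher in every GNMT knockout than in every wild type, with 3 knockouts far above the other 2, whereas all MAT1A knockouts lay below all their wild types. The GNMT effect was 4.01 ± 0.81 (limma, adjusted p = 0.00635), the MAT1A effect was not called at -1.32 ± 0.44 (adjusted p = 0.102), and the difference was 5.33 ± 1.01 (adjusted p = 0.00167). With a t-test of unequal variances the GNMT effect lost its call (adjusted p = 0.0977). MAT1A wild type 1 decided the uncalled MAT1A effect, which was -0.80 and called without it (adjusted p = 0.00565). The GNMT wild types and the MAT1A knockouts were low.

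Sult1e1, the sulfotransferase that inactivates estrogens, measured 10.53, 11.32, 11.51, 11.26 and 12.16 in MAT1A knockouts, against 3.87, 5.52, 3.90, 4.45 and 5.44 in their wild types. Sult1e1 measured 4.78, 5.01, 5.12, 4.34 and 4.99 in GNMT knockouts, against 6.37, 5.17, 5.76, 4.85 and 5.68 in their wild types. The MAT1A groups were far apart and the GNMT groups overlapped. Sult1e1 rose by 6.72 ± 0.36 in MAT1A knockouts (limma, adjusted p = 3.43e-07), was not called in GNMT knockouts at -0.72 ± 0.24, and gave the largest negative difference of all genes, -7.44 ± 0.48. Without GNMT wild type 4, the lowest wild type, the GNMT effect of Sult1e1 was -0.90 and called (adjusted p = 0.0236). The MAT1A wild types were low.

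Asns, which makes asparagine and is a classic target of the amino acid response, measured 10.81, 10.67, 10.37, 10.46 and 10.27 in MAT1A knockouts, against 5.67, 6.19, 6.78, 5.25 and 6.68 in their wild types. In GNMT knockouts it spread from 4.76 to 8.75 (8.45, 8.75, 4.76, 7.74 and 5.42), against 8.81, 8.10, 7.38, 8.19 and 8.47 in their wild types. Every MAT1A knockout was above every wild type, and the GNMT groups overlapped, with the knockouts spread widely. Asns rose by 4.40 ± 0.25 in MAT1A knockouts (limma, adjusted p = 6.79e-07), had an uncalled effect of -1.17 ± 0.69 in GNMT knockouts, and differed by -5.57 ± 0.80 between the models.

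Scd1, the desaturase that makes monounsaturated fatty acids, measured 12.58, 12.78, 13.01, 12.90 and 12.38 in GNMT knockouts, against 12.15, 12.25, 11.89, 12.49 and 12.30 in their wild types. Scd1 measured 11.29, 11.01, 10.39, 11.63 and 10.84 in MAT1A knockouts, against 13.02, 13.10, 12.59, 12.80 and 12.17 in their wild types. The MAT1A groups did not overlap, and in the GNMT cohort knockout 5 lay below wild type 4. Scd1 fell by 1.71 ± 0.22 in MAT1A knockouts (limma, adjusted p = 0.000477) and rose by 0.52 ± 0.13 in GNMT knockouts (adjusted p = 0.0236), a difference of 2.22 ± 0.28. The probe sets of Scd1 gave GNMT effects of 0.80 and 0.23, and on the brighter one, with 0.23, the rise was not called (adjusted p = 0.128). The rise in GNMT knockouts also lost its call without GNMT knockout 2, 3 or 4 or wild type 1 or 3, whereas the fall in MAT1A knockouts and the difference were called without any 1 array.

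**Figure D1:**
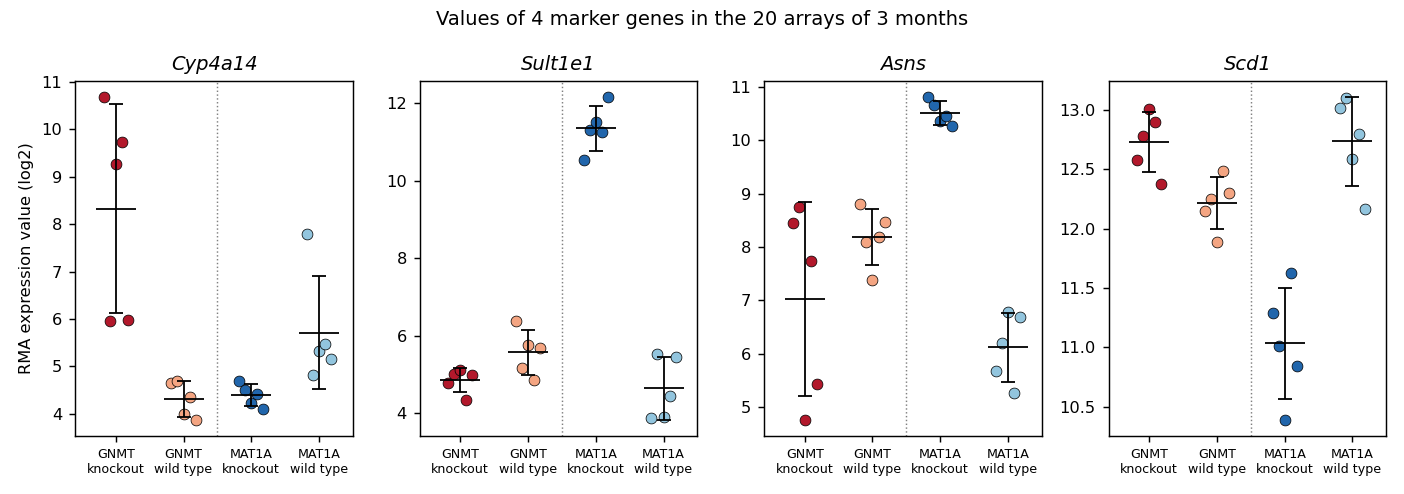
RMA expression values on the log2 scale (vertical axes, which differ between panels and do not start at 0) of Cyp4a14, Sult1e1, Asns and Scd1 in each of the 20 arrays, with the mean and SD of each group of 5 as black lines. Cyp4a14 stands out in GNMT knockouts, Sult1e1 and Asns in MAT1A knockouts, and Scd1 moves up against wild types in GNMT knockouts and down in MAT1A knockouts.

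Over all 18194 genes, GNMT loss changed 2547 and MAT1A loss 1294. In GNMT knockouts 1580 genes (8.68%) were called higher and 967 (5.31%) lower, and in MAT1A knockouts 791 (4.35%) were called higher and 503 (2.76%) lower. Log2 effects of 1 or more were reached by 184 of the genes called in GNMT knockouts and by 172 of those called in MAT1A knockouts. The difference was called for 1820 genes, 993 (5.46%) with the GNMT effect above the MAT1A effect and 827 (4.55%) below it, and 305 of them differed by at least 1. Of the genes called in GNMT knockouts 62.0% were higher, against 81.5% after each array was centred on its median and 54.6% after quantile normalization of the 20 arrays, so the balance of rises and falls in that model depends on the scaling. Medians of the GNMT effects over all genes were -0.03 as deposited, 0.05 after centring and -0.01 after quantile normalization, and the median MAT1A effect was 0.000456 as deposited.

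Of the genes called in the 2 models, 378 were called in both, which is 14.8% of those called in GNMT knockouts and 29.2% of those called in MAT1A knockouts. Among these, 278 (73.5%) moved in the same direction and 100 in opposite directions, while 55.8% of all genes had effects of the same sign. The shared genes were 188 higher in both (1.03% of all genes) and 90 lower in both (0.495%). Genes that rose in GNMT knockouts and fell in MAT1A knockouts numbered 45 (0.247%), those that fell in GNMT knockouts and rose in MAT1A knockouts numbered 55 (0.302%), and the difference was called for all 100. A gene was counted as particular to 1 model when it was called there, not called in the other, and called for the difference. By that rule 657 genes (3.61%) were higher and 346 (1.9%) lower in GNMT knockouts only, and 256 (1.41%) were higher and 147 (0.808%) lower in MAT1A knockouts only. For a further 1166 genes called in GNMT knockouts alone and 513 called in MAT1A knockouts alone, the difference was not called, so these data do not assign them to 1 model. In 281 genes the difference was called with neither effect called.

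Across genes the 2 effects had a Pearson correlation of 0.18, and of 0.46 over the 378 genes called in both, which describes these genes and carries no test because genes are not independent replicates. The cohorts share no arrays. Of the 278 shared genes 33 also differed in size, 20 with the stronger effect in GNMT knockouts and 13 with the stronger effect in MAT1A knockouts.

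**Figure D2:**
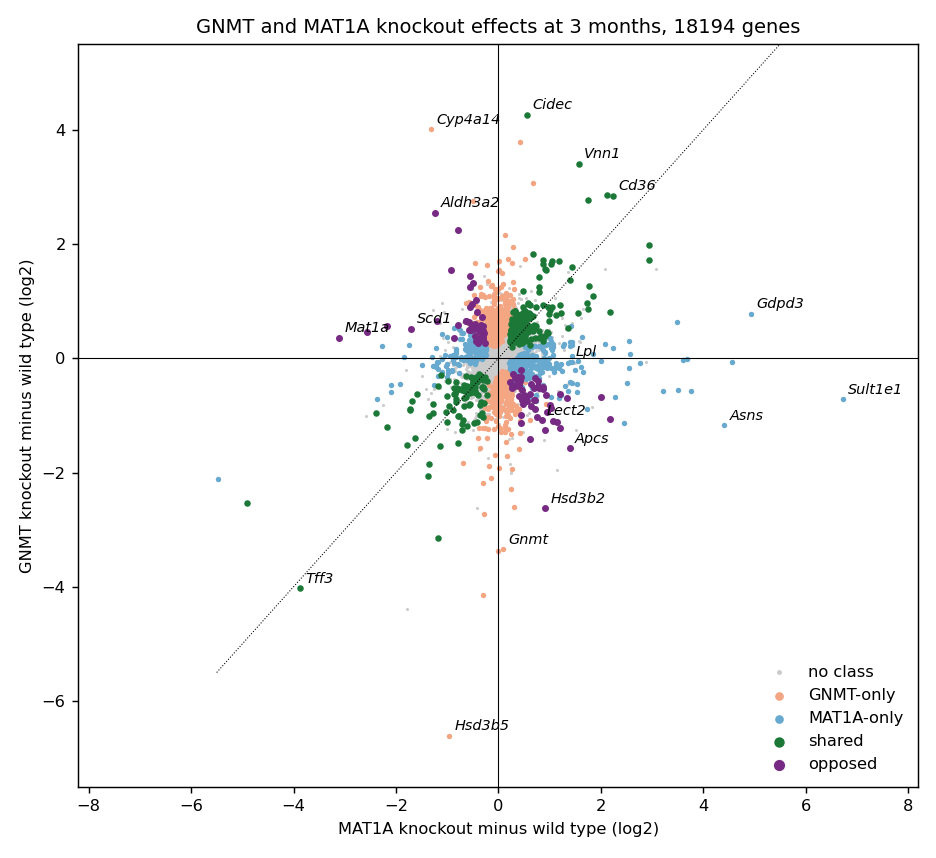
Each point is 1 of 18194 genes, with the MAT1A effect on the horizontal axis and the GNMT effect on the vertical axis (knockout minus wild type, log2 units) and colour for its class; the dotted line marks equal effects. Sult1e1, Gdpd3 and Asns lie far out along the MAT1A axis with GNMT effects from -1.17 to 0.78, Hsd3b5 and Cyp4a14 along the GNMT axis, and Tff3 close to the line of equal effects.

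Some enzymes that make and use SAMe moved differently in the 2 models. Of 15 measured genes of the methionine cycle and SAMe synthesis, 4 rose and 1 fell in GNMT knockouts, 2 rose and 2 fell in MAT1A knockouts, and the difference was called for 6. These counts hold the deleted genes. Gnmt is the 1 fall in GNMT knockouts and Mat1a is 1 of the 2 falls in MAT1A knockouts, as the genotype fixed. Both are among the 6 called differences for the same reason. Mat1a is also 1 of the 4 rises in GNMT knockouts. Among all genes 8.68% rose and 5.31% fell in GNMT knockouts, and 4.35% rose and 2.76% fell in MAT1A knockouts. The difference was called for 5.46% of them with the GNMT effect above and for 4.55% with it below. The 4 rises in GNMT knockouts became 8 after centring on array medians and 2 after quantile normalization. Apart from the deleted genes, the largest change in GNMT knockouts was that of Mtrr, the reductase that reactivates methionine synthase. Mtrr measured 5.78, 5.53, 5.49, 5.29 and 5.08 in GNMT knockouts, against 4.31, 4.10, 4.27, 3.90 and 4.54 in their wild types, which were low. Mtrr measured 5.39, 4.93, 5.19, 5.21 and 5.45 in MAT1A knockouts, against 4.92, 5.55, 5.37, 5.07 and 5.36 in their wild types. The GNMT groups did not overlap and the MAT1A groups did, and Mtrr rose by 1.21 ± 0.14 in GNMT knockouts (limma, adjusted p = 0.00027), with an effect of -0.02 ± 0.13 in MAT1A knockouts and a difference of 1.23 ± 0.20 (adjusted p = 0.000473). Mat2b, the regulatory subunit of the SAMe-making enzyme of non-hepatic cells, rose by 0.38 ± 0.084 in GNMT knockouts and had an uncalled effect of -0.22 ± 0.098 in MAT1A knockouts (difference 0.60 ± 0.13). Its GNMT call was lost in 3 settings, among them the fit without wild types 1 and 5 (adjusted p = 0.0508).

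Dmgdh, the mitochondrial enzyme that turns dimethylglycine into sarcosine, changed in the other model. It measured 12.34, 12.53, 12.52, 12.52 and 12.65 in MAT1A knockouts, against 11.62, 11.46, 11.34, 11.54 and 11.28 in their wild types. Dmgdh measured 11.34, 11.47, 11.36, 11.41 and 11.22 in GNMT knockouts, against 10.94, 11.15, 11.32, 11.24 and 10.92 in their wild types. The MAT1A groups were clearly apart and the GNMT groups overlapped, with a rise of 1.07 ± 0.081 in MAT1A knockouts (limma, adjusted p = 6.55e-06), an effect of 0.25 ± 0.092 in GNMT knockouts that was called only in 2 settings, centring on array medians and the 20 arrays in 1 fit, and a difference of -0.82 ± 0.12. Pipox, which oxidizes sarcosine in peroxisomes, fell by 0.62 ± 0.073 in MAT1A knockouts and had an effect of -0.02 ± 0.078 in GNMT knockouts. Sardh, the mitochondrial sarcosine dehydrogenase, was called in neither (0.05 and 0.07). Bhmt, which remethylates homocysteine with betaine, was the only gene of this list higher in both, by 0.21 ± 0.062 in GNMT knockouts, a call that was lost without any 1 of 10 arrays, and by 0.27 ± 0.060 in MAT1A knockouts. Ahcy, which splits the product of methylation, and Mtr, methionine synthase, were called in neither model.

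Of 16 measured genes of SAMe-dependent small-molecule methylation, 5 rose and 0 fell in GNMT knockouts and 1 rose and 1 fell in MAT1A knockouts. Over all genes 8.68% rose and 5.31% fell in GNMT knockouts, and 4.35% rose and 2.76% fell in MAT1A knockouts. With 1 rise and 1 fall the MAT1A counts lie near these shares. As3mt, the arsenite methyltransferase, measured 9.33, 9.23, 9.32, 9.15 and 9.25 in GNMT knockouts, against 8.53, 8.14, 8.30, 7.97 and 8.52 in their wild types, and overlapped between the MAT1A groups. It rose by 0.97 ± 0.11 in GNMT knockouts (limma, adjusted p = 0.000206) and differed by 0.84 ± 0.19 between models. Hnmt, which methylates histamine, rose by 0.84 ± 0.12 in GNMT knockouts, with -0.36 ± 0.13 in MAT1A knockouts, which was not called, and a difference of 1.20 ± 0.18. Coq3 and Coq5, methyltransferases of coenzyme Q synthesis, rose by 0.69 ± 0.098 and 0.62 ± 0.14 in GNMT knockouts. The difference for Coq5 was not called. Tpmt, thiopurine methyltransferase, measured 9.48, 9.39, 9.08, 9.29 and 9.33 in MAT1A knockouts, against 8.14, 8.34, 8.15, 8.30 and 8.46 in their wild types, a rise of 1.04 ± 0.087 with no overlap. In GNMT knockouts Tpmt was not called at 0.31 ± 0.16, and the difference of -0.73 ± 0.20 lost its call in 5 of the 11 alternative settings. Gatm, which makes the substrate of the creatine methyltransferase Gamt, fell by 0.63 ± 0.12 in MAT1A knockouts.

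**Figure D3:**
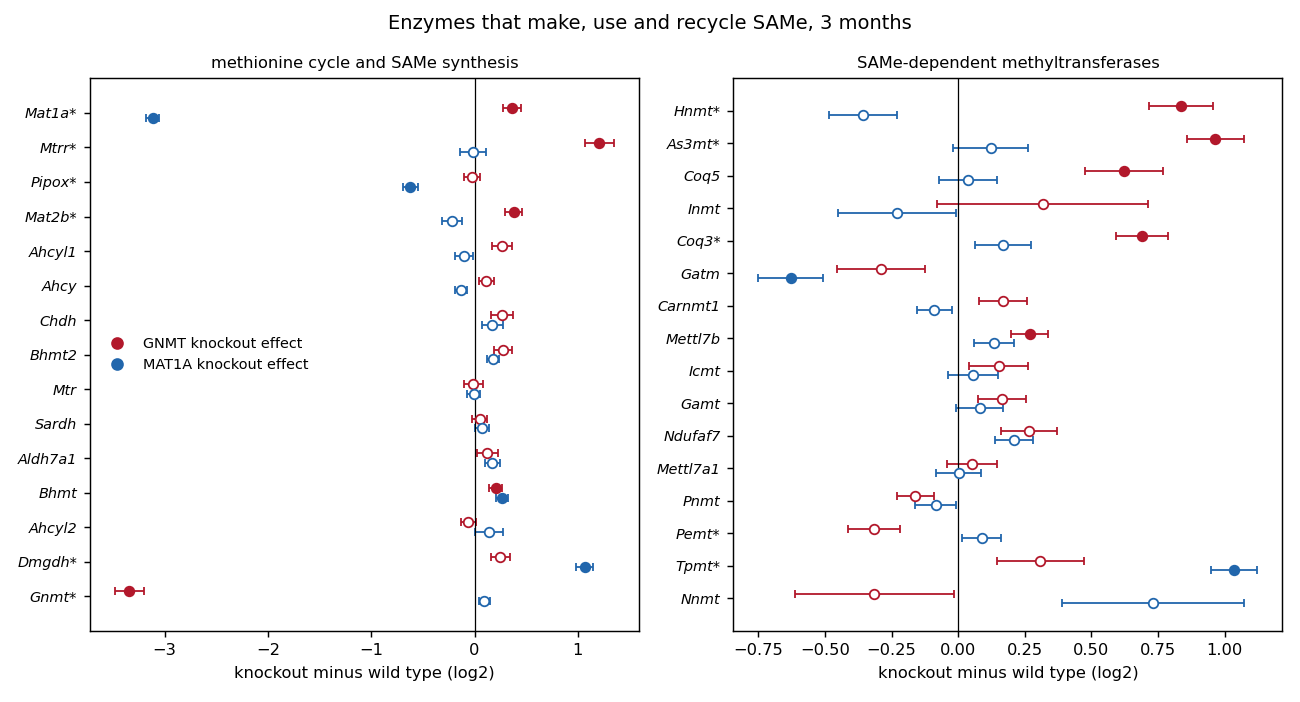
Effects (horizontal axes, knockout minus wild type in log2 units, with standard errors) of 15 genes of the methionine cycle and 16 of small-molecule methylation, GNMT knockouts in red above MAT1A knockouts in blue. Filled points passed the threshold and an asterisk after a name marks a called difference, which Mtrr, Mat2b and As3mt show on the GNMT side and Dmgdh and Tpmt on the MAT1A side.

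Next to the cycle, 2 genes of polyamine synthesis rose in GNMT knockouts and 2 of glutathione synthesis in MAT1A knockouts. Srm, spermidine synthase, measured 8.63, 8.32, 7.98, 8.09 and 8.33 in GNMT knockouts, against 7.70, 7.62, 7.40, 7.49 and 7.48 in their wild types, and rose by 0.73 ± 0.12 without overlap (limma, adjusted p = 0.0016). In MAT1A knockouts its effect was 0.10 ± 0.10 and the difference 0.63 ± 0.16. Odc1, ornithine decarboxylase, rose by 0.56 ± 0.11 in GNMT knockouts, while its difference of 0.33 was not called. Over the 14 measured genes of methionine salvage and polyamines 4 rose and 1 fell in GNMT knockouts, and 2 rose and 1 fell in MAT1A knockouts (1 rose without MAT1A knockout 3 or 4 or wild type 2 or 3). Shares over all genes were 8.68% higher and 5.31% lower in GNMT knockouts, and 4.35% higher and 2.76% lower in MAT1A knockouts. Of 12 genes of transsulfuration and taurine, Gclm and Gss, which make glutathione, rose in MAT1A knockouts by 0.49 ± 0.086 and 0.48 ± 0.068, with effects of -0.11 and -0.06 in GNMT knockouts. The calls of both in MAT1A knockouts were lost with all 39 arrays in 1 fit. The catalytic partner Gclc fell by 0.92 ± 0.15 in GNMT knockouts and was not called in MAT1A knockouts (0.17). Suox, sulfite oxidase, rose by 0.63 ± 0.11 in GNMT knockouts, and its called difference was lost in 4 of the 11 alternative settings. Of 23 folate genes 3 rose and 3 fell in GNMT knockouts and 2 rose in MAT1A knockouts, with Mthfd1l, a mitochondrial formate producer, higher in both by 0.51 ± 0.13 and 0.54 ± 0.12. Its call in GNMT knockouts was lost without any 1 of 4 arrays and in 2 settings, and that in MAT1A knockouts in 2 settings. The 3 folate genes that rose in GNMT knockouts became 1 without GNMT knockout 2 or 3 or wild type 4, and the 2 in MAT1A knockouts became 4 without MAT1A knockout 5. These folate counts are too few to be set apart from the shares over all genes.

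Genes of fatty acid oxidation differed between the models. Of 42 measured targets of PPAR alpha and enzymes of fatty acid oxidation, 24 rose and 0 fell in GNMT knockouts, where 8.68% of all genes rose. In MAT1A knockouts, where 4.35% of all genes rose and 2.76% fell, 5 rose and 1 fell (8 rose without MAT1A knockout 1). The difference was called in 18 of 42, always with the GNMT effect above the MAT1A effect, where 5.46% of all genes were. Median effects over the 42 genes were 0.52 in GNMT knockouts and 0.04 in MAT1A knockouts. Aldh3a2, which oxidizes fatty aldehydes, measured 10.45, 10.53, 10.55, 10.84 and 10.03 in GNMT knockouts, against 7.39, 8.46, 8.14, 8.60 and 7.08 in their wild types. Aldh3a2 measured 6.96, 8.32, 8.54, 8.92 and 7.98 in MAT1A knockouts, against 9.76, 9.34, 9.19, 9.47 and 9.13 in their wild types. The groups were apart in both cohorts and in opposite directions, at 2.55 ± 0.27 in GNMT knockouts and -1.23 ± 0.29 in MAT1A knockouts, though the call in MAT1A knockouts was lost without MAT1A wild type 4 (adjusted p = 0.0527). A t-test with unequal variances did not call it either (adjusted p = 0.167).

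Some but not all enzymes of mitochondrial and peroxisomal beta-oxidation rose in GNMT knockouts. Decr2 and Ehhadh, of peroxisomes, rose by 1.30 ± 0.14 and 0.88 ± 0.087, and Eci1 and Cpt2, of mitochondria, by 1.09 ± 0.14 and 0.50 ± 0.073. The carnitine carrier Slc25a20 rose by 0.96 ± 0.087 and the peroxisome growth factor Pex11a by 0.78 ± 0.12. None of these 6 was called in MAT1A knockouts, where their effects ran from -0.39 to 0.13, and the difference was called for each. Other enzymes of the pathway were not called in GNMT knockouts, with effects of 0.05 for Hadha, of the trifunctional protein, and 0.28, 0.27 and 0.23 for the acyl-CoA dehydrogenases Acadl, Acadvl and Acads. Ppara, the receptor itself, rose by 0.57 ± 0.11 in GNMT knockouts and had an uncalled effect of 0.34 in MAT1A knockouts, a difference of 0.22 that was not called. Vnn1, a pantetheinase and PPAR alpha target, was the 1 list member higher in both models. It measured 9.69, 9.19, 9.47, 10.14 and 9.25 in GNMT knockouts, against 6.32, 6.50, 6.40, 6.35 and 5.16 in their wild types. In MAT1A knockouts Vnn1 measured 8.59, 9.18, 9.50, 9.31 and 8.93, against 8.19, 7.75, 7.30, 7.61 and 6.80 in their wild types. Neither cohort had overlapping groups, and the rise of 3.40 ± 0.25 in GNMT knockouts exceeded that of 1.57 ± 0.23 in MAT1A knockouts (difference 1.83 ± 0.37, limma, adjusted p = 0.00274).

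Genes of lipid droplets and targets of PPAR gamma, the adipogenic receptor, rose in GNMT knockouts in 12 of 24 cases, with 0 falls, and in MAT1A knockouts in 4 of 24, with 1 fall. Among all genes 8.68% rose and 5.31% fell with GNMT loss, and 4.35% rose and 2.76% fell with MAT1A loss. The difference was called for 7 of the 24 with the GNMT effect above and for 1 with it below. Over all genes these shares were 5.46% above and 4.55% below. Cidec, which fuses lipid droplets, measured 8.82, 7.95, 7.64, 8.61 and 6.70 in GNMT knockouts, against 4.22, 3.13, 3.81, 3.76 and 3.47 in their wild types. Cidec measured 4.46, 4.20, 4.24, 4.75 and 4.40 in MAT1A knockouts, against 3.74, 3.90, 3.73, 3.88 and 4.02 in their wild types, and all but the GNMT knockouts were low. Cidec was higher in every knockout than in its wild types, by 4.26 ± 0.34 in the GNMT cohort and by 0.55 ± 0.10 in the MAT1A cohort, where the call was lost in 3 settings. Its relative Cidea rose by 3.79 ± 0.57 and Mogat1, a monoacylglycerol acyltransferase, by 3.07 ± 0.28 in GNMT knockouts only, from low wild types. Pparg rose by 1.49 ± 0.22, Plin2, the coat protein of droplets, by 0.99 ± 0.13 and G0s2, an inhibitor of lipolysis, by 1.68 ± 0.31 in GNMT knockouts. None of these 3 was called in MAT1A knockouts (0.06, 0.13 and 0.00), and the difference was called for Pparg and Plin2 and not for G0s2.

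Fatty acid uptake genes did not follow the same order. Cd36, the fatty acid translocase, measured 8.34, 7.84, 8.63, 8.64 and 7.91 in GNMT knockouts, against 6.11, 5.17, 4.94, 5.06 and 5.86 in their wild types. Cd36 measured 8.66, 8.75, 8.56, 8.66 and 8.17 in MAT1A knockouts, against 6.46, 6.14, 6.17, 6.18 and 6.67 in their wild types. Cd36 was higher without overlap in both models, by 2.85 ± 0.24 and 2.23 ± 0.13, and the difference of 0.61 ± 0.29 was not called (limma, adjusted p = 0.217), though it was 0.99 and called without GNMT wild types 1 and 5 (adjusted p = 0.0134). Lpl, the lipase that frees fatty acids from lipoproteins, measured 9.42, 10.17, 10.02, 9.30 and 9.76 in MAT1A knockouts, against 8.47, 8.62, 8.42, 8.28 and 7.89 in their wild types. It rose there by 1.40 ± 0.17 without overlap, while in GNMT knockouts its groups overlapped with an effect of -0.06 ± 0.28 (difference -1.45 ± 0.36, adjusted p = 0.012).

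Among 28 genes that synthesize and desaturate fatty acids, 7 rose and 2 fell in GNMT knockouts, and 0 rose and 5 fell in MAT1A knockouts, with medians of 0.09 and -0.27. Over all genes 8.68% rose and 5.31% fell in GNMT knockouts, and 4.35% rose and 2.76% fell in MAT1A knockouts. The 7 rises became 4 without GNMT wild types 1 and 5. The count of 5 moved between 2 and 8 when single MAT1A arrays were left out, namely knockout 5 and wild types 2, 4 and 5. Beside Scd1, the elongase Elovl2 fell by 0.91 ± 0.11 in MAT1A knockouts and had an uncalled effect of -0.20 in GNMT knockouts. Fads2, the delta-6 desaturase, rose by 1.09 ± 0.13 in GNMT knockouts and stayed uncalled at 0.12 in MAT1A knockouts, and the differences of 0.71 for Elovl2 and 0.97 for Fads2 were called. Dgat2, which completes triglycerides, fell by 0.45 ± 0.078 in GNMT knockouts only.

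The amino acid and integrated stress response is the programme that kinases of the initiation factor eIF2 alpha and the transcription factor ATF4 switch on when amino acids are short. Of 32 measured genes 0 rose and 2 fell in GNMT knockouts, 6 rose and 0 fell in MAT1A knockouts, and the difference was called for 8, always with the MAT1A effect above (5 after centring on array medians). Among all genes 5.31% fell in GNMT knockouts, 4.35% rose in MAT1A knockouts and 4.55% had a called difference in this direction. Median effects were -0.05 in GNMT knockouts and 0.20 in MAT1A knockouts. ATF4 and its C/EBP partners bind composite elements in such promoters, so the bases from 250 before to 50 after the start sites of the 4 list members with the largest called negative differences, Asns, Chac1, Nupr1 and Trib3, are shown. Capitals mark the only match to TGATGNAA, read on both strands. The sequences are those of RefSeq on GRCm38.p6, written along the strand of the gene, and lie at chr6:7693160-7693459 (minus strand) for Asns, chr2:119350992-119351291 (plus strand) for Chac1, chr7:126625421-126625720 (minus strand) for Nupr1 and chr2:152344011-152344310 (minus strand) for Trib3.
Asns promoter: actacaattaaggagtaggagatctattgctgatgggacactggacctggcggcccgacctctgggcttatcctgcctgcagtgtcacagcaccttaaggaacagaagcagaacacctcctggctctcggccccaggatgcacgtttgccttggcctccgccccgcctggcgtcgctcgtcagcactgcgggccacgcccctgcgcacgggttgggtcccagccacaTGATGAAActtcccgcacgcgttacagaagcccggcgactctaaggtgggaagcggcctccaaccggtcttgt
Chac1 promoter: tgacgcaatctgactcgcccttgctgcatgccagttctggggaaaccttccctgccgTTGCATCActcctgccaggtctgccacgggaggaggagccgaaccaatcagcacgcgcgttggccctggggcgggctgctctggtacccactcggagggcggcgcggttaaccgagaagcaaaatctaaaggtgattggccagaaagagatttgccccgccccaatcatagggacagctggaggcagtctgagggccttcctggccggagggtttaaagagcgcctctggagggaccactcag
Nupr1 promoter: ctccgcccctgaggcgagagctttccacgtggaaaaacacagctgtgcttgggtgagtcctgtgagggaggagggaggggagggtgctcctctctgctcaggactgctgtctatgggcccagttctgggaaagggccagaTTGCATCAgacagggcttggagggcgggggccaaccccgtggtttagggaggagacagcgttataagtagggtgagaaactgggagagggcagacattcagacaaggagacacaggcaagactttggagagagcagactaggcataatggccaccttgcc
Trib3 promoter: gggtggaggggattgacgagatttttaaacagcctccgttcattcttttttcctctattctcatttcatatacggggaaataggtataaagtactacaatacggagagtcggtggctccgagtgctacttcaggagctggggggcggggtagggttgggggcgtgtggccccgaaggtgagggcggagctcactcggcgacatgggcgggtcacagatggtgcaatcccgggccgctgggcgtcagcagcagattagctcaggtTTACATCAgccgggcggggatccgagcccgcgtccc
The match begins 23 bases before the start site in Asns, 193 before it in Chac1, 110 before it in Nupr1 and at base 15 after it in Trib3. Such a match was present in 9 of the 25 list members with a listed promoter (36%) and in 3.24% of the 14453 measured genes with one, and in 3.97% of all 32851 promoters. It is a description of these letters and not of binding, and 3.92% of the promoters of genes higher in MAT1A knockouts only held one.

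Nupr1, a stress-induced nuclear protein, measured 6.13, 7.24, 7.25, 6.90 and 5.90 in MAT1A knockouts, against 5.61, 5.28, 5.72, 5.36 and 5.36 in their wild types. Nupr1 measured 4.34, 4.39, 4.12, 4.24 and 4.38 in GNMT knockouts, against 4.38, 4.40, 4.25, 4.43 and 4.56 in their wild types, close to the array medians. The MAT1A groups did not overlap, with a rise of 1.22 ± 0.24 (limma, adjusted p = 0.00887), and the effect in GNMT knockouts was -0.11 ± 0.081 (difference -1.33 ± 0.28, adjusted p = 0.00342, its call lost in 2 settings). Trib3, a pseudokinase that restrains ATF4 signalling, measured 6.83, 7.09, 6.81, 6.33 and 6.09 in MAT1A knockouts, against 5.71, 5.42, 5.82, 5.52 and 5.48 in their wild types. It rose by 1.04 ± 0.17 there without overlap, with 0.15 ± 0.16 in GNMT knockouts and a difference of -0.89 ± 0.25 that lost its call in 3 settings. In MAT1A knockouts the rises of Nupr1 and Trib3 lost their calls under a t-test with unequal variances (adjusted p = 0.129 and 0.0652). Chac1, which degrades glutathione, was called in neither knockout, at -0.57 in GNMT knockouts and 0.80 in MAT1A knockouts, and its difference of -1.37 ± 0.41 was lost without any 1 of 9 arrays. Atf4 itself was called in neither (-0.25 and -0.08).

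The unfolded protein response of the endoplasmic reticulum went down in part of its genes with GNMT loss, with 7 of 25 lower and 1 higher, and 0 of 25 were called in MAT1A knockouts by limma. Over all genes 5.31% were lower and 8.68% higher in GNMT knockouts, and 2.76% were lower and 4.35% higher in MAT1A knockouts. At an unadjusted p under 0.05, 3 of the 25 passed in MAT1A knockouts. Sdf2l1, a chaperone cofactor, Ero1b, an oxidase of disulfide formation, and Calr, calreticulin, fell in GNMT knockouts (-0.77 ± 0.17, -0.90 ± 0.11 and -0.45 ± 0.080), with effects of 0.24, 0.13 and 0.24 in MAT1A knockouts and called differences. The count of 7 became 3 without GNMT wild types 1 and 5, 4 after centring and 11 after quantile normalization. The difference was called for 8 of 25, all with the GNMT effect below, and for as few as 5 when MAT1A knockout 3 or MAT1A wild type 1 was left out. Among all genes 4.55% had a called difference in this direction. Of 16 heat shock proteins 9 were higher and 0 lower in GNMT knockouts, and 0 were higher and 1 lower in MAT1A knockouts. A difference with the GNMT effect above was called for 5.46% of all genes. It was called for 3 of the 16 heat shock proteins, and for 2 without GNMT wild types 1 and 5. Most of the 9 rises are thus not assigned to 1 model. Hsph1, a nucleotide exchange factor for the chaperone Hsp70, rose by 1.09 ± 0.16 in GNMT knockouts and was uncalled at -0.19 in MAT1A knockouts (difference 1.27 ± 0.35).

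**Figure D4:**
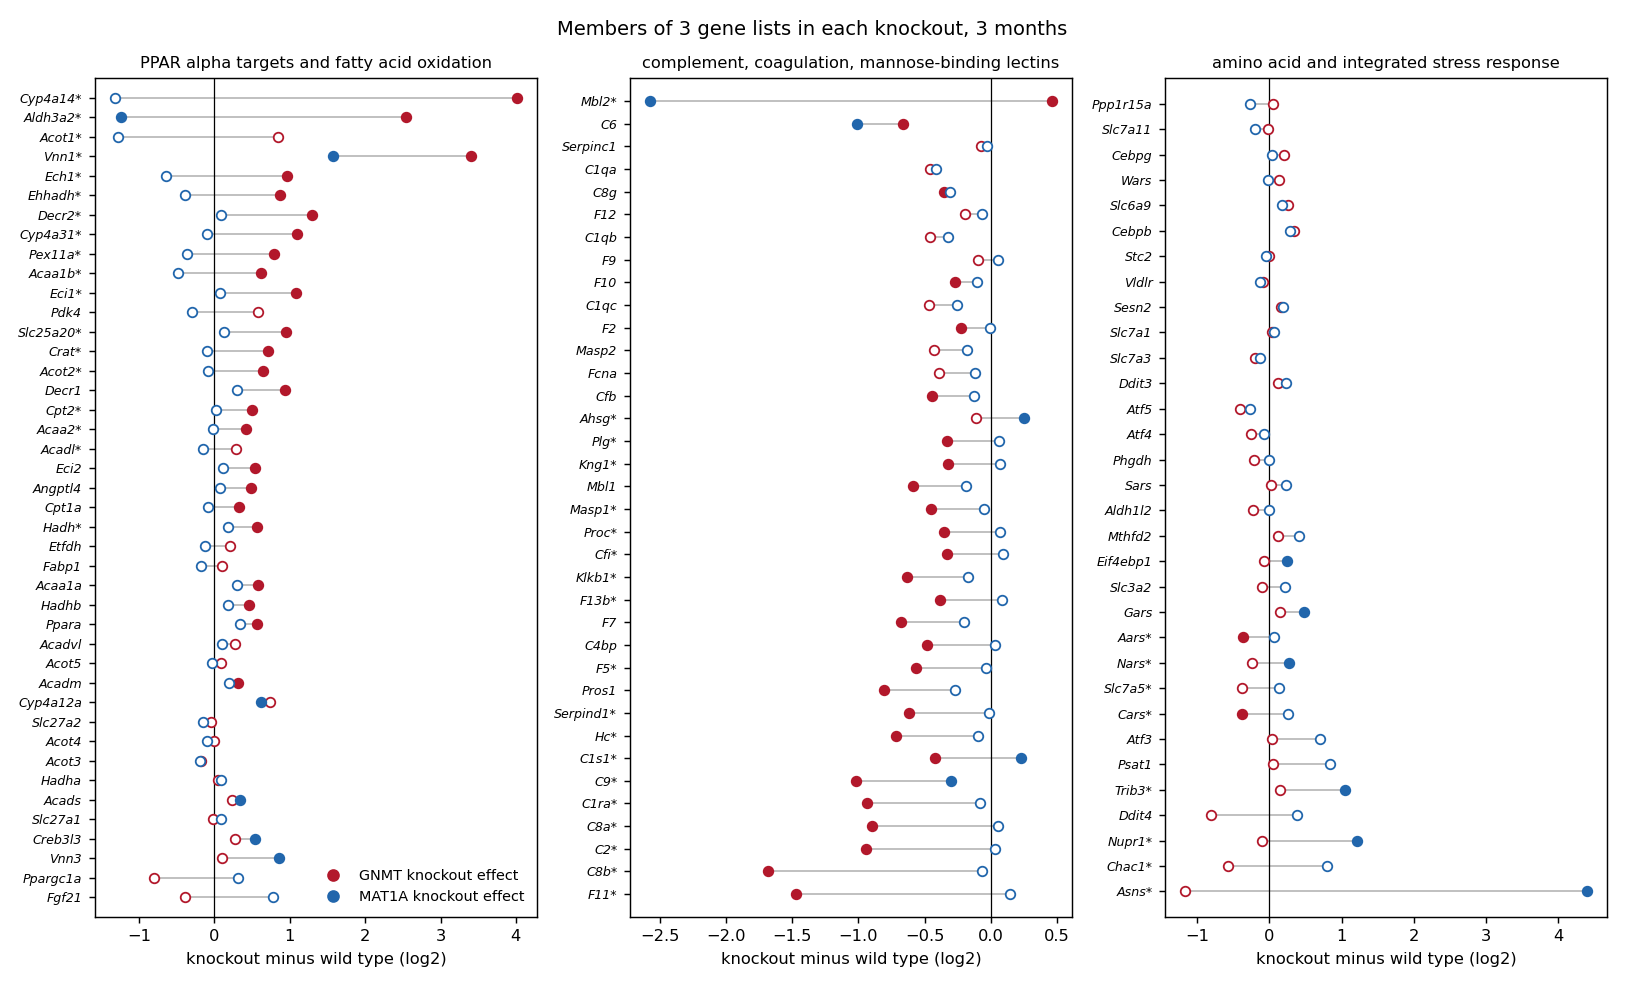
Effects (horizontal axes, knockout minus wild type in log2 units) of every measured member of 3 gene lists, GNMT in red and MAT1A in blue, ordered by the difference. Filled points passed the threshold and asterisks mark called differences: 18 of 42 on the left with the GNMT effect above, 18 of 36 in the centre with the GNMT effect below and 1 above, and 8 of 32 on the right with the GNMT effect below.

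Liver transcripts for plasma proteins of complement and coagulation fell broadly with GNMT loss. Of 36 measured genes 26 fell and 1 rose in GNMT knockouts, where 5.31% of all genes fell. In MAT1A knockouts, where 2.76% of all genes fell and 4.35% rose, 3 fell and 2 rose. A called difference with the GNMT effect below was found for 18, and for 4.55% of all genes. The 3 falls in MAT1A knockouts became 6 without MAT1A knockout 1. Median effects were -0.46 and -0.07. C8b, a chain of the membrane attack complex, measured 9.74, 9.69, 9.29, 9.61 and 10.63 in GNMT knockouts, against 11.45, 11.55, 11.57, 11.39 and 11.42 in their wild types. C8b measured 11.89, 12.20, 11.98, 11.99 and 12.29 in MAT1A knockouts, against 11.91, 12.11, 12.15, 12.22 and 12.30 in their wild types. The GNMT groups were apart and the MAT1A groups overlapped, with an effect of -1.69 ± 0.19 in GNMT knockouts (limma, adjusted p = 0.000218), an effect of -0.07 ± 0.094 in MAT1A knockouts and a difference of -1.62 ± 0.23. Coagulation factor F11 and complement C2 fell in GNMT knockouts only (-1.47 ± 0.15 and -0.94 ± 0.14). Mbl2, a mannose-binding lectin, ran against the list, with an effect of -2.57 ± 0.21 in MAT1A knockouts and a rise of 0.46 ± 0.12 in GNMT knockouts that lost its call in 3 settings. Without GNMT wild types 1 and 5, the 2 with high Lcn2, 16 of the 36 still fell in GNMT knockouts, and after centring on array medians 17 did.

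Of 29 acute phase genes 9 fell and 0 rose in GNMT knockouts, where 5.31% of all genes fell. In MAT1A knockouts 2 rose, where 4.35% of all genes did. Apcs, serum amyloid P, measured between 10.37 and 11.20 in the 5 GNMT knockouts, against 13.27, 11.52, 11.32, 12.33 and 13.23 in their wild types. Apcs measured 14.21, 13.50, 13.48, 13.39 and 13.48 in MAT1A knockouts, against 11.84, 11.85, 12.78, 11.59 and 13.04 in their wild types. Apcs fell by 1.57 ± 0.36 in GNMT knockouts and rose by 1.39 ± 0.27 in MAT1A knockouts, without overlap in either cohort, and the difference was -2.96 ± 0.49 (limma, adjusted p = 0.000551). GNMT wild types 1 and 5, high in Lcn2, were also the highest in Apcs, and the count of 9 falls became 3 without them. In the MAT1A cohort, knockout 1 was the highest knockout in both Apcs and Lcn2 (13.55 for Lcn2), and wild types 3 and 5 were the highest wild types in both (11.88 and 12.95 for Lcn2). The Apcs calls held without any 1 array, and the part of this spread in them was not tested. A t-test with unequal variances called Apcs in neither model (adjusted p = 0.1 for GNMT loss and 0.088 for MAT1A loss). Single arrays moved the count of 9 between 5 and 12, with GNMT wild type 5 and GNMT knockouts 2 and 4 changing it most. Saa4, a constitutive serum amyloid, fell by 2.29 ± 0.24 in GNMT knockouts and was not called in MAT1A knockouts (0.24).

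Sex-biased genes of the liver, which growth hormone pulses set in mice, fell with either loss where they are male-biased. Of 22 measured male-biased genes 16 fell and 0 rose in GNMT knockouts, 9 fell and 2 rose in MAT1A knockouts, and 7 fell in both, against 0.495% of all genes. Falls in each model were called for 5.31% of all genes with GNMT loss and 2.76% with MAT1A loss. The 9 falls in MAT1A knockouts became as few as 5 when MAT1A knockout 5 or MAT1A wild type 2 or 4 was left out. Hsd3b5, a male-specific steroid dehydrogenase, measured 6.29, 3.41, 3.60, 7.72 and 6.16 in GNMT knockouts, against 11.77, 12.49, 12.18, 11.88 and 11.89 in their wild types. Hsd3b5 measured 9.82, 11.73, 11.96, 11.67 and 11.59 in MAT1A knockouts, against 12.44, 12.31, 12.37, 12.34 and 12.10 in their wild types. Knockouts lay below wild types in both cohorts, with -6.61 ± 0.68 in the GNMT cohort (limma, adjusted p = 0.000141), while the MAT1A effect of -0.96 ± 0.32 was not called and knockout 1 lay well below the others. Without that array the MAT1A effect was -0.58 and called (adjusted p = 0.00223). The difference was -5.65 ± 0.83.

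Susd4, a complement inhibitor of this list, measured 4.94, 5.05, 5.35, 4.79 and 5.08 in GNMT knockouts, against 8.08, 8.43, 7.95, 8.13 and 8.34 in their wild types. Susd4 measured 6.79, 7.58, 7.34, 6.99 and 7.43 in MAT1A knockouts, against 8.23, 8.42, 8.57, 8.38 and 8.45 in their wild types. Susd4 fell without overlap in both, with effects of -3.14 ± 0.12 and -1.18 ± 0.14, and more in GNMT knockouts (difference -1.96 ± 0.19). Slco1a1, an organic anion carrier, fell in both, with -1.51 ± 0.27 in GNMT knockouts and -1.78 ± 0.38 in MAT1A knockouts. Of 23 female-biased genes 6 rose and 0 fell in GNMT knockouts, 4 rose and 1 fell in MAT1A knockouts, and Cd36, Cyp17a1 and Tox rose in both. Rises were called for 8.68% of all genes in GNMT knockouts and 4.35% in MAT1A knockouts. Cyp17a1, the 17-hydroxylase of steroid synthesis, measured 10.60, 10.81, 10.48, 10.53 and 10.06 in GNMT knockouts, against 9.13, 6.18, 7.42, 7.05 and 8.46 in their wild types. In MAT1A knockouts Cyp17a1 measured 9.29, 9.02, 9.09, 8.30 and 8.98, against 6.97, 6.77, 6.16, 6.90 and 7.26 in their wild types. It rose without overlap by 2.85 ± 0.44 and 2.13 ± 0.21, and the difference of 0.72 ± 0.53 was not called, though it was 1.49 and called without GNMT wild types 1 and 5 (adjusted p = 0.0112). Its rise in GNMT knockouts lost its call under a t-test with unequal variances (adjusted p = 0.0511).

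**Figure D5:**
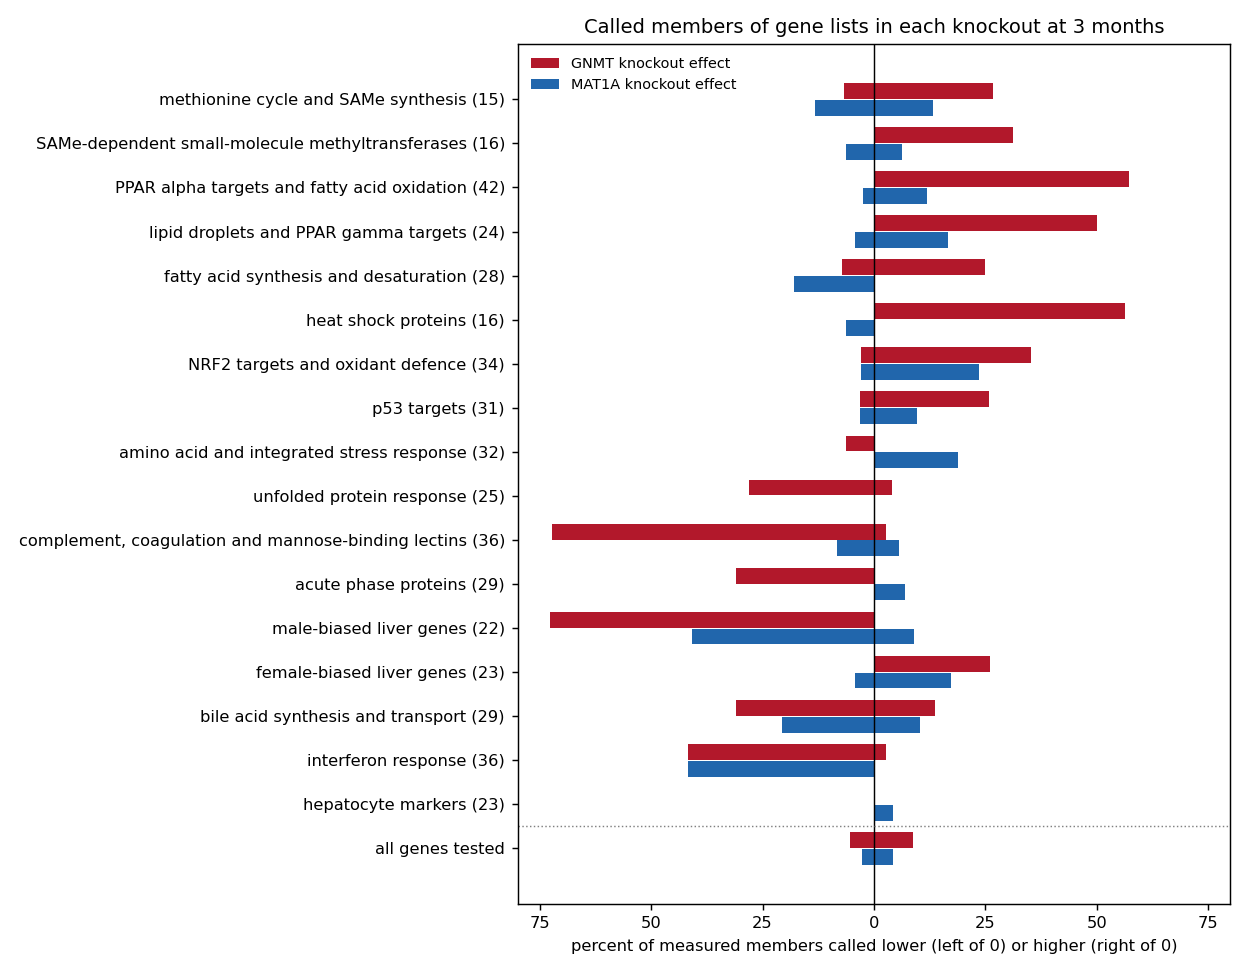
Share of the measured members of 17 gene lists (horizontal axis, percent, with the number measured in brackets) called higher to the right of 0 and lower to the left, for the GNMT effect in red above the MAT1A effect in blue. All genes tested stand in the bottom row; PPAR alpha targets and lipid droplets reach far right for GNMT only, complement far left for GNMT only, and male-biased genes and the interferon response reach left for both.

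Beyond the sex-biased genes, the shared class was led by Tff3, a trefoil peptide. It measured 5.12, 4.64, 5.48, 5.80 and 7.15 in GNMT knockouts, against 10.82, 9.54, 7.75, 8.99 and 11.19 in their wild types. In MAT1A knockouts Tff3 measured 5.59, 5.28, 6.61, 5.22 and 5.66, against 8.75, 9.97, 9.82, 8.60 and 10.63 in their wild types. No group overlapped with its wild types, the effects were -4.02 ± 0.61 and -3.88 ± 0.37, and the difference was -0.14 ± 0.79. Among shared rises, Mfsd2a, a carrier of lysophosphatidylcholine, rose by 1.73 ± 0.36 in GNMT knockouts and by 2.94 ± 0.28 in MAT1A knockouts, and Apoa4, an apolipoprotein that rises with liver fat, by 1.37 ± 0.28 and 1.40 ± 0.13. Serpina6, the plasma carrier of glucocorticoids, fell in both (-1.54 ± 0.19 and -1.14 ± 0.14), as did Vegfb, a vascular growth factor (-0.96 ± 0.16 and -1.29 ± 0.18).

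Interferon-induced genes were lower in both models, with 15 of 36 called lower in each and 7 shared, and 1 called higher in GNMT knockouts. Among all genes 5.31% were lower in GNMT knockouts, 2.76% in MAT1A knockouts and 0.495% in both. Median effects were -0.33 in GNMT knockouts and -0.30 in MAT1A knockouts. Irgm1, an interferon-induced GTPase, measured 7.03, 7.28, 7.33, 7.58 and 7.46 in GNMT knockouts, against 7.92, 7.92, 7.84, 7.71 and 8.08 in their wild types. Irgm1 measured 9.09, 8.99, 9.02, 8.79 and 8.96 in MAT1A knockouts, against 9.12, 9.58, 9.32, 9.69 and 9.66 in their wild types. Both losses left Irgm1 below every wild type of the cohort, with effects of -0.56 ± 0.11 and -0.50 ± 0.11. The GNMT count of 15 ranged from 6 to 14 without single GNMT arrays, with the strongest effect of knockouts 1, 2 and 4 and wild types 2 and 4, and the MAT1A count from 12 to 17. The GNMT count became 9 without GNMT wild types 1 and 5. Irgm1 itself lost its MAT1A call with all 39 arrays in 1 fit (adjusted p = 0.0628). Stat2, a signal carrier of interferon, was opposed, at 0.82 ± 0.11 in GNMT knockouts and -0.43 ± 0.080 in MAT1A knockouts, a call that was lost in 2 settings. Of 34 macrophage markers 4 fell in GNMT knockouts and 2 fell and 1 rose in MAT1A knockouts, and the 4 became 8 after quantile normalization and 1 without GNMT wild types 1 and 5. The count of 4 became 15 without GNMT knockout 5 and 1 without GNMT knockout 1, 2 or 4 or wild type 1 or 4, and the 2 falls in MAT1A knockouts became 8 without MAT1A knockout 1 and 1 without most other MAT1A arrays. Median effects of the macrophage markers were -0.37 in GNMT knockouts and -0.14 in MAT1A knockouts. Their mean level was 6.40 to 7.03 in GNMT knockouts, 6.84 to 7.24 in GNMT wild types, 7.52 to 7.99 in MAT1A knockouts and 7.57 to 7.91 in MAT1A wild types, and its part in the interferon result was not tested.

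Genes of oxidant defence rose in part with both losses. Of 34 NRF2 targets and other genes of oxidant defence, 12 were higher and 1 lower in GNMT knockouts. In MAT1A knockouts 8 were higher and 1 lower. The falls were those of Gclc in GNMT knockouts (-0.92) and Prdx3 in MAT1A knockouts (-0.55). Shared rises were 4, namely Gpx4, Nqo1, Taldo1 and Txn2. The calls of Gpx4, Taldo1 and Txn2 in at least 1 model were lost without some single arrays. Nqo1, a quinone reductase, rose by 1.25 ± 0.13 and 0.79 ± 0.13, the second losing its call in 2 settings. Leaving out single arrays moved the counts of rises to as low as 7 in the GNMT cohort (GNMT wild types 3 and 4, knockouts 2 and 3) and 4 in the MAT1A cohort (knockouts 2 to 4, wild types 2 to 5), and quantile normalization left 7 in GNMT knockouts. In bile acid synthesis and transport 9 of 29 genes fell and 4 rose in GNMT knockouts, and 6 fell and 3 rose in MAT1A knockouts. Shared falls there were those of the bile salt export pump Abcb11 (-0.63 ± 0.10 and -0.87 ± 0.079), the bile acid ligase Slc27a5, the reductase Akr1d1, the conjugating enzyme Baat and Slco1a1, with the calls of Akr1d1 and Baat in GNMT knockouts lost without any 1 of 8 and 6 arrays and that of Baat in MAT1A knockouts without any 1 of 7. Of 31 p53 targets 8 rose and 1 fell in GNMT knockouts and 3 rose and 1 fell in MAT1A knockouts, with Ccng1, cyclin G1, up by 1.35 ± 0.15 and Zmat3, an RNA-binding target, by 1.25 ± 0.17 in GNMT knockouts only. Beside each of these lists, 8.68% of all genes rose and 5.31% fell in GNMT knockouts. In MAT1A knockouts 4.35% rose and 2.76% fell.

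Opposed genes included several of steroid, redox and secretory function. Hsd3b2, a steroid dehydrogenase of the same family as Hsd3b5, measured 5.61, 5.65, 5.29, 5.82 and 5.65 in GNMT knockouts, against 8.97, 8.41, 8.01, 7.97 and 7.79 in their wild types. Hsd3b2 measured 9.47, 10.41, 10.54, 10.39 and 10.42 in MAT1A knockouts, against 9.36, 9.28, 9.32, 9.26 and 9.46 in their wild types. Hsd3b2 fell by 2.62 ± 0.19 in GNMT knockouts and rose by 0.91 ± 0.17 in MAT1A knockouts, with MAT1A knockout 1 just above the wild types (difference -3.54 ± 0.27, limma, adjusted p = 8.19e-08). The rise lost its call under a t-test with unequal variances (adjusted p = 0.116). Since probes of the Hsd3b family may share sequence, the split between Hsd3b2 and Hsd3b5 is uncertain. Hsd17b6, which interconverts retinol and androgen derivatives, measured 5.90, 5.13, 5.61, 6.05 and 5.11 in GNMT knockouts, against 6.37, 6.49, 6.66, 6.18 and 6.84 in their wild types. Hsd17b6 measured 7.47, 7.65, 7.68, 7.84 and 7.77 in MAT1A knockouts, against 7.07, 6.79, 6.71, 6.72 and 6.42 in their wild types. Both cohorts were without overlap and in opposite directions, at -0.95 ± 0.19 and 0.94 ± 0.11. These are averages of probe sets that disagreed in size, with effects of -1.80 and 1.83 on one and of -0.10 and 0.05 on the other, whose group means lay below the array medians. The GNMT call of Hsd17b6 was lost under a t-test with unequal variances (adjusted p = 0.0523).

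Lect2, a protein that hepatocytes secrete, measured 9.87, 10.06, 9.88, 10.08 and 9.67 in GNMT knockouts, against 11.14, 11.14, 11.05, 10.75 and 10.89 in their wild types. Lect2 measured between 11.64 and 12.15 in the 5 MAT1A knockouts, against 11.07, 11.11, 11.09, 10.98 and 11.13 in their wild types. Lect2 thus fell by 1.08 ± 0.10 with GNMT loss and rose by 0.84 ± 0.094 with MAT1A loss (difference -1.93 ± 0.14, limma, adjusted p = 4.36e-08). The MAT1A call was lost with all 39 arrays in 1 fit (adjusted p = 0.16). Prdx3, the peroxiredoxin of mitochondria, ran the other way and measured 11.28, 11.36, 11.32, 11.31 and 11.04 in GNMT knockouts, against 10.18, 10.53, 10.34, 10.31 and 10.49 in their wild types. Prdx3 measured 10.01, 10.17, 10.15, 10.09 and 9.69 in MAT1A knockouts, against 10.76, 10.55, 10.56, 10.53 and 10.46 in their wild types. Groups did not overlap in either cohort, and the effects were 0.89 ± 0.089 and -0.55 ± 0.094 (difference 1.44 ± 0.13). Uqcr10, a subunit of respiratory complex III, was opposed on the mean of its 3 probe sets, at 0.56 ± 0.092 in GNMT knockouts and -2.17 ± 0.089 in MAT1A knockouts. The probe sets disagreed in the MAT1A cohort, with effects of -4.07, -2.69 and 0.24, so its value there is uncertain.

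Of the genes changed in 1 model only, the largest in MAT1A knockouts beside Sult1e1 and Asns were Gdpd3, a lysophospholipase D, and Ptgds, which makes prostaglandin D2. Gdpd3 measured 10.44, 9.86, 9.87, 9.31 and 9.84 in MAT1A knockouts, against 4.97, 5.08, 4.78, 4.75 and 5.07 in their wild types, which were low. Gdpd3 measured 6.37, 6.28, 6.48, 6.87 and 4.95 in GNMT knockouts, against 8.02, 4.80, 4.48, 4.70 and 5.04 in their wild types. The MAT1A groups were far apart and the GNMT groups overlapped, as wild type 1 lay above all knockouts and knockout 5 near the other wild types, with effects of 4.93 ± 0.16 and 0.78 ± 0.60 (difference -4.15 ± 0.68). Without GNMT wild type 1 the GNMT effect of Gdpd3 was 1.43 and called (adjusted p = 0.0124). Ptgds rose by 4.56 ± 0.32 in MAT1A knockouts and differed by -4.62 ± 0.38 between models. Aqp4, a water channel, and Slc39a2, a zinc carrier, rose in MAT1A knockouts by 3.21 ± 0.27 and 3.69 ± 0.30 and were low in the other 3 groups. In GNMT knockouts only, Lgals1, galectin 1, rose by 2.75 ± 0.33, Slc25a4, the ADP/ATP carrier, by 1.70 ± 0.13 and Txnip, a thioredoxin-binding protein, by 1.66 ± 0.17. Falls there were -4.14 ± 0.23 for the organic anion carrier Slc22a7, -3.38 ± 0.45 for Slc3a1, of the cystine transporter, and -2.72 ± 0.19 for Nox4, an NADPH oxidase.

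Slc22a7 and Cyp39a1, an oxysterol hydroxylase that fell by 2.60 ± 0.35 in GNMT knockouts only, lie within 10 Mb of Gnmt, which is at chr17:46725664-46729211 on GRCm38.p6. Of 181 measured genes in that window 14.4% were called in GNMT knockouts, where 14% of all genes were. Near Mat1a, at chr14:41105012-41124428, 14.2% of 127 genes within 10 Mb were called in MAT1A knockouts, 6 higher and 12 lower, where 7.11% of all genes were. Lrit1 and Gdf10, which fell in MAT1A knockouts only (-2.26 ± 0.21 and -1.22 ± 0.097), are among them, and the part of chromosome position in their values was not tested.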

How the data were processed

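Liver RNA was hybridized to Affymetrix whole-genome mouse arrays, and the authors deposited log2 expression values made by RMA, with GCOS named for the scanner data in the submitters' processing notes and no version given. The distributions of the values differ between the cohorts, and the sources do not say whether RMA was run separately for each. A further deposited table of log2 ratios for each knockout array was not used.

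Of 45101 probe sets 34958 were annotated to 1 gene, 932 to several and 9211 to none. Probe sets of 1 gene were averaged, as in the methods of the study, which gave 18194 genes with no filter on low values. For each cohort limma 3.58.1 in R 4.3.3 compared 5 knockouts with 5 wild types, and the difference was a contrast over the 20 arrays in 4 groups. Genes sharing probes with a family (Ugt2b, Cyp4a, Cyp2c, Mup, Hsd3b) are uncertain. Genes were named by rule: both deleted genes and the 4 given with the comparison, the 20 largest called differences in each direction, the 15 largest genes of each class, up to 6 members of a list with the lowest p for the difference and up to 4 in each knockout, and any member of the lists of methionine, methyl, polyamine, folate and sulfur metabolism. Other genes named were chosen after their values were seen. The members, the 49 gene lists and the genes named were chosen with earlier results of these data known. The fits were tested on simulated data. Alternatives were other fits, scalings, probe choices and the omission of arrays. Promoters, genomic positions and gene names came from RefSeq. Python 3.11.15 and matplotlib 3.10.9 drew the figures.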

Additional observations from a re-analysis of the deposited data

Results flagged for a closer look

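In 7 of 128 groups of 5 arrays, over 32 genes, 1 array lay apart from the other 4 by more than Dixon's limit of 0.71 of the range, and chance alone flags about 1 in 20 groups. High values were those of Apcs in MAT1A knockout 1 (14.21, the others 13.39 to 13.50), Cyp4a14 in MAT1A wild type 1 (7.80, the others 4.83 to 5.47) and Gdpd3 in GNMT wild type 1 (8.02, the others 4.48 to 5.04). Low values were those of Hsd3b2 and Hsd3b5 in MAT1A knockout 1 (9.47 and 9.82, the others 10.39 to 10.54 and 11.59 to 11.96), Prdx3 in GNMT knockout 5 (11.04, the others 11.28 to 11.36) and Vnn1 in GNMT wild type 5 (5.16, the others 6.32 to 6.50).

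Of the same 32 genes, 28 had effects that differed between the models by limma's contrast of the effects. Many of them were chosen for large or clear differences in these data, and the deleted genes are included. The count of 28 is thus no measure of how often the models differ, which 1820 of all 18194 genes did. The GNMT effect lay above the MAT1A effect by 5.33 for Cyp4a14, 3.78 for Aldh3a2, 3.71 for Cidec, 3.48 for the deleted Mat1a, 2.74 for Uqcr10, 2.22 for Scd1, 1.83 for Vnn1, 1.44 for Prdx3, 1.23 for Mtrr, 0.84 for As3mt, 0.63 for Srm and 0.60 for Mat2b. It lay below it, with differences of -7.44 for Sult1e1, -5.65 for Hsd3b5, -5.57 for Asns, -4.15 for Gdpd3, -3.54 for Hsd3b2, -3.44 for the deleted Gnmt, -2.96 for Apcs, -1.96 for Susd4, -1.93 for Lect2, -1.89 for Hsd17b6, -1.62 for C8b, -1.45 for Lpl, -1.33 for Nupr1, -0.89 for Trib3, -0.82 for Dmgdh and -0.73 for Tpmt.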

How the results depend on the processing

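Counts of called genes depended on the scaling and the test more than on any 1 array. With arrays centred on their median, 2401 genes were higher and 544 lower in GNMT knockouts, 522 differences were below 0, 58 genes were lower in both, 34 fell with GNMT loss and rose with MAT1A loss, and 197 were lower in GNMT knockouts only. With the 20 arrays in 1 fit 1457 were lower in GNMT knockouts, and with array weights 288 were higher in both. An unequal-variance test per gene called 1032 higher and 519 lower in GNMT knockouts, 381 and 231 in MAT1A knockouts and 550 differences below 0. It left 62 and 25 shared genes (higher and lower), 8 and 13 opposed genes (GNMT higher and MAT1A higher), 215 lower in GNMT knockouts only, and 133 higher and 73 lower in MAT1A knockouts only. A minimum of 0.5 in both models left 61 shared rises and 50 shared falls. Leaving out single arrays gave 1129 to 1580 higher and 689 to 967 lower in GNMT knockouts, 565 to 927 and 364 to 555 in MAT1A knockouts, and 804 to 1052 and 678 to 833 differences. Shared genes ranged over 135 to 251 and 68 to 105, opposed genes over 26 to 47 (26 without MAT1A wild type 4) and 41 to 62, genes of GNMT knockouts only over 479 to 671 and 267 to 352, and those of MAT1A knockouts only over 190 to 257 and 105 to 161. The cause of these shifts was not tested.

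Same-numbered arrays did not deviate together, with correlations from -0.144 to 0.186 in the GNMT cohort and from -0.186 to 0.163 in the MAT1A cohort, so the numbers were not taken as a pairing. With the replicate number as a block, 1237 genes were higher and 765 lower in GNMT knockouts, 616 and 368 in MAT1A knockouts, and 795 and 690 differences were called, with 129 and 70 shared, 28 and 48 opposed, 503 and 285 in GNMT knockouts only and 201 and 111 in MAT1A knockouts only. Among the effects of 32 genes the block ended the calls of Irgm1 in MAT1A knockouts (adjusted p = 0.0523) and of the Tpmt difference (adjusted p = 0.061).

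The 32 genes were chosen in part for large effects in these data, so their stability does not stand for all called genes. Of 188 shared rises 56 kept their class under the unequal-variance test and 169 with an intensity trend and robust priors. Of 45 opposed genes higher in GNMT knockouts 7 and 42 did. For those 32 genes, 2308 of 2353 values of the 76 called effects and differences over 31 settings kept their direction and their side of the threshold, 44 lost the call and 1 reversed, the Uqcr10 effect in MAT1A knockouts, which was 0.24 on its brightest probe set. Of 620 values of the 20 uncalled ones, 588 kept both, 11 became called and 21 changed sign without a call. Those that became called were of Cyp4a14 and Hsd3b5 in MAT1A knockouts, of Sult1e1 (also with the block, adjusted p = 0.0383), Dmgdh and Gdpd3 in GNMT knockouts, and of the differences of Cd36 and Cyp17a1. The Lpl effect in GNMT knockouts was 0.021 after centring, 0.18 without GNMT wild types 1 and 5 and -0.23 to 0.12 without single arrays, and the Mtrr effect in MAT1A knockouts -0.10 to 0.058 without single arrays. The Tff3 difference was 0.019 after quantile normalization, 0.76 without GNMT wild types 1 and 5 and -0.62 to 0.24 without single arrays. The Irgm1 difference was 0.023 after centring, 0.016 without GNMT wild types 1 and 5 and -0.12 to 0.034 without single arrays. Signal near background limits the size of effects of Cyp4a14, Cidec, Sult1e1, Mtrr, Nupr1 and Gdpd3.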
